A study of Mus musculus with 12 samples.

Results

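The aminoacyl-tRNA synthetases are the enzymes that join each amino acid to its transfer RNA, and their transcripts were followed here in mouse splenic B cells. The members were Farsa and Farsb and all genes whose symbol follows the one-letter amino acid code with "ars" (Aars to Yars, and the mitochondrial enzymes with a trailing 2). Of 34 such genes on the array, 31 had a probe above background on at least 3 arrays, among 10050 genes that passed this filter. Hars2, Nars2 and Yars2 did not pass it and are not described further. Of the members' 74 probes, 59 passed. The measured members comprised 18 cytosolic and 13 mitochondrial enzymes. The cytosolic glutamyl-prolyl enzyme Eprs, whose symbol lies outside the rule, is given among the related genes.

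All cells came from 8-week-old C57BL/6 mice carrying a heterozygous deletion of the E2A gene (Tcf3), which encodes the E protein E12, a basic helix-loop-helix transcription factor. They were activated with CD40L (200 ng/ml) and IL-4 (5 ng/ml) for 14 h, infected in 2 rounds of 12 h with a GFP retrovirus in the added presence of LPS (200 ng/ml), kept for 22 h more and sorted for GFP. The virus carried wild-type E12 or a calmodulin-resistant mutant of E12, so either form was overexpressed on top of the remaining endogenous allele. Cells of either form were left untreated or received anti-mouse IgM (2.5 µg/ml), which engages the B-cell receptor, for 3 h, and each of the 4 groups had 3 arrays. No label says whether the 3 samples of a group were separate cultures or animals, so the tests measure the spread between these samples, which may be technical.

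Synthetases fall into class I and class II by the fold of the catalytic domain. In the mammalian cytosol several of them sit with Eprs in the multi-synthetase complex, held by the scaffold proteins Aimp1, Aimp2 and Eef1e1, while others act free, and a separate nuclear-encoded set serves the mitochondria. Gars and Kars each serve both compartments from one gene. Known regulators of these genes include MYC, which binds the E-box CACGTG, and ATF4, the transcription factor of the amino acid response, which binds a composite element with C/EBP partners. Lymphocytes entering growth raise their protein synthesis, for which charged tRNA is the substrate.

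Values are array intensities, given as log2 of the jointly quantile-normalised intensity plus 50, 1 probe for a gene, and changes are differences on that log2 scale, which understates changes of dim probes. Adjusted p-values come from limma over all 10050 genes, and a change was called at an adjusted p under 0.05. The probe used was above background on at least 1 array of every group for each of the 31 members. Tcf3 was higher on all mutant arrays (11.27 to 12.93) than on all wild-type arrays (10.34 to 11.17). The form of E12 and the amount of Tcf3 transcript therefore cannot be told apart where the forms are compared. The B-cell genes Cd79b, Ms4a1, Cd22 and Blk were above background on all 12 arrays, whereas the Pax5 probe was above it on 0 arrays. The summed intensity of the 4 detected B-cell genes was 31350 to 39660 in untreated wild-type cells, 23370 to 24860 in anti-IgM-treated wild-type cells, 16670 to 20010 in untreated mutant cells and 15260 to 19490 in treated mutant cells. Of 7 T-cell and 4 erythroid genes listed, 0 passed the filter. Of 8 myeloid genes 5 passed, with a summed intensity of 830 to 2663 in untreated wild-type cells and 397.1 to 852.9 in the other groups, and Itgam was above background on 0 arrays. The 5 plasma-cell genes summed to 11490 to 13400 on the wild-type arrays and 14440 to 22300 on the mutant arrays. Single genes went against these sums in treated cells, where the plasma-cell gene Irf4 was lower with the mutant (-1.30) and the myeloid gene Mpeg1 higher (2.02). These marker levels moved with the groups compared below, and their part in the results was not tested. In bulk samples fewer cells of a type and less RNA per cell cannot be told apart.

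The first comparison asked how anti-IgM changed synthetase transcripts in cells with wild-type E12. Of 31 synthetases, 11 rose (the background: 15.1% of all genes rose) and 2 fell (background 16.2%, and 31.3% for either direction), with a median change of 0.29 over the members against -0.02 over all genes. The rise lay largely in the cytosolic enzymes, of which 9 of 18 rose and 1 fell (median 0.55), against 2 higher and 1 lower of 13 mitochondrial enzymes (median 0.10), a contrast between lists that was not tested. All 3 treated arrays lay above all 3 untreated arrays for 17 members (background 23.7%) and below them for 3 (background 26.7%), and the groups overlapped for 11. Without untreated replicate 1, whose myeloid sum of 2663 was the highest, 10 rose and 4 fell. The structural classes were alike in counts, with 6 of 17 class I and 5 of 14 class II members higher and 1 lower in each.

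**Figure D1:**
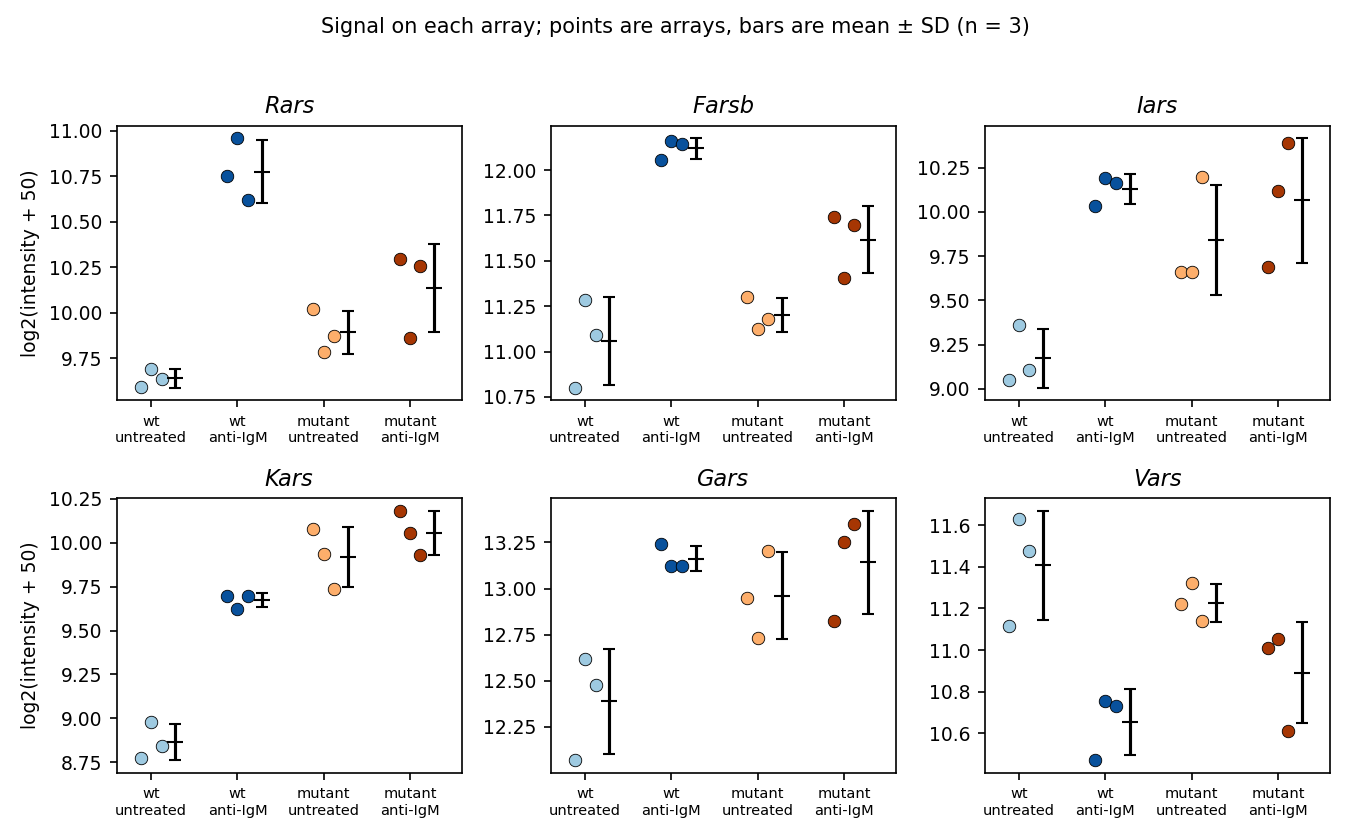
Per-array log2(intensity + 50) of 6 synthetases (y axis) in the 4 groups, Rars, Farsb, Iars, Kars, Gars and Vars, with points for arrays and bars for mean ± SD (n = 3). Rars lies at 9.59 to 9.69 in untreated and 10.62 to 10.96 in treated wild-type cells, and between 9.78 and 10.29 on the mutant arrays.

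Rars, the arginyl-tRNA synthetase of the multi-synthetase complex, responded most. Its gene lies at chr11:35808381-35834528 in GRCm38.p6. Its values were 9.59, 9.69 and 9.64 on the untreated wild-type arrays and 10.75, 10.96 and 10.62 on the treated ones, with no overlap. The change was 1.13 ± 0.14 (SE), a 2.2-fold rise with an adjusted p of 3.31e-05 in limma, and its other detected probe gave 1.07. Iars, the isoleucyl enzyme of the complex, measured 9.05, 9.36 and 9.11 untreated and 10.03, 10.19 and 10.16 treated, also without overlap. It rose by 0.96 ± 0.18 (SE; adjusted p 0.00117). Its other detected probes gave 0.93 and 0.36, the latter seen on 6 arrays and missing the threshold. Kars, the lysyl enzyme, measured 8.77, 8.98 and 8.84 untreated and 9.69, 9.63 and 9.69 treated, and the treated arrays were again all higher. The rise was 0.81 ± 0.12 (SE; adjusted p 0.000192), with 0.49 on its other detected probe.

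Of the 6 measured complex members, 4 rose and 0 fell, with a median change of 0.69. Lars, the leucyl enzyme, was the fourth, at 0.57 (adjusted p 0.0101). Mars1, the methionyl enzyme, had a change of 0.53 that missed the threshold (adjusted p 0.0654). Its other probe, on all 12 arrays, gave 0.52 and passed it (adjusted p 0.00683 in limma over all detected probes). Qars, the glutaminyl enzyme, had -0.24. With replicate numbers blocked inside either E12 form, 13 members rose, the added ones being Mars1 (adjusted p 0.0103) and the mitochondrial Ears2 (0.0294), and 39.1% of all genes were called in either direction. With the block in the wild-type arrays alone, where same-numbered samples deviated together only weakly (r 0.177 to 0.289), 13 rose as well.

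Farsb, the beta subunit of the cytosolic phenylalanyl enzyme, led the 12 free cytosolic members. It measured 10.80, 11.28 and 11.09 untreated and 12.05, 12.16 and 12.14 treated. The treated arrays all lay above the untreated ones, and the change was 1.06 ± 0.14 (SE; adjusted p 5.71e-05), with 1.25 on its other probe. The alpha subunit, Farsa, stood at 0.11 and missed the threshold. Gars, the glycyl enzyme, measured 12.07, 12.62 and 12.48 untreated and 13.24, 13.12 and 13.12 treated. It rose by 0.77 ± 0.17 (SE; adjusted p 0.00351), without overlap, but its other detected probe, seen on 5 arrays, gave -0.09. In all 5 free members rose, the others being Sars (0.70), Wars (0.63) and Tars (0.61), the seryl, tryptophanyl and threonyl enzymes. The Sars call was lost without untreated replicate 1 (adjusted p 0.0907) or any 1 of the 3 treated replicates (0.0519 to 0.0647), while its other detected probe gave 0.87. Of the free members that missed the threshold, Aars, Nars, Cars, Yars and Hars had changes between 0.22 and 0.31.

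Vars, the valyl enzyme, went the other way. It measured 11.12, 11.63 and 11.48 in untreated and 10.47, 10.76 and 10.73 in treated wild-type cells. Every treated array lay below every untreated one, and the change was -0.75 ± 0.16 (SE; adjusted p 0.00211). A second Vars probe fell by 0.69 and the remaining one had -0.27, which missed the threshold. Vars was the only cytosolic synthetase that fell in this comparison.

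Among the mitochondrial enzymes, Rars2 (arginyl) and Mars2 (methionyl) rose. Rars2 measured 8.74, 9.01 and 8.88 untreated and 9.57, 9.52 and 9.70 treated, a change of 0.72 (adjusted p 0.00129), with 0.63 and 0.60 on its other detected probes. Mars2 measured 7.58, 7.49 and 7.50 untreated and 8.24, 8.03 and 8.14 treated, a change of 0.61 (adjusted p 0.000889). The groups did not overlap for either gene. Fars2, the mitochondrial phenylalanyl enzyme, fell by 0.43 (adjusted p 0.0186), from 9.02, 9.33 and 9.22 to 8.67, 8.81 and 8.81. That call was lost without untreated replicate 2 (adjusted p 0.0801), untreated replicate 3 (0.0524) or treated replicate 1 (0.0758), each of which left Vars as the 1 member lower. The other 10 mitochondrial members did not pass, Ears2 (glutamyl) being nearest at 0.37 (adjusted p 0.0601).

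Promoter sequence was at hand for 23 of the 31 members (24 RefSeq entries, GRCm38.p6, each 300 bases from 250 before to 50 after the start). Both strands were searched for CACGTG, the MYC E-box, and for TGATGNAA, an ATF4 and C/EBP composite element. CACGTG was in 20.8% of the members' entries (5 of 24: Aars, Ears2, Farsb, Iars and Tars) and in 7.15% of all 32851 promoter entries. TGATGNAA was in 20.8% (5 of 24: Aars, Gars, Iars, Tars and Yars) and in 3.97% of all entries. All 5 genes with TGATGNAA were cytosolic, among 11 cytosolic entries, and 4 of those 11 held CACGTG. For the sites of E proteins such as E12 itself, CAGCTG was in 12.5% of the members' entries (16.3% of all) and CAGGTG in 16.7% (20.2% of all). The 4 members with CAGGTG were all mitochondrial (Fars2, Lars2, Tars2 and Wars2). A match is a description of letters and not a bound site.

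The promoters of 4 members are shown 5′ to 3′ on the gene's strand, with CACGTG and TGATGNAA matches of either strand in capitals: Iars, Tars and Aars, which hold both, and Farsb, whose response was the largest of the members with an entry. They lie at chr13:49681880-49682179 on the plus strand (Iars), chr15:11399609-11399908 on the minus strand (Tars), chr8:111033592-111033891 on the plus strand (Aars) and chr1:78488848-78489147 on the minus strand (Farsb).
Iars: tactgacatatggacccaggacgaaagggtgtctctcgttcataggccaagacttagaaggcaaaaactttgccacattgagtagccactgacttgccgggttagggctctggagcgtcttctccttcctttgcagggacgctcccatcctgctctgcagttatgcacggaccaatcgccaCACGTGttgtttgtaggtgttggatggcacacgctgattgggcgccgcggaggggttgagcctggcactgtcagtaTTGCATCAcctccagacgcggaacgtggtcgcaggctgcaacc
Tars: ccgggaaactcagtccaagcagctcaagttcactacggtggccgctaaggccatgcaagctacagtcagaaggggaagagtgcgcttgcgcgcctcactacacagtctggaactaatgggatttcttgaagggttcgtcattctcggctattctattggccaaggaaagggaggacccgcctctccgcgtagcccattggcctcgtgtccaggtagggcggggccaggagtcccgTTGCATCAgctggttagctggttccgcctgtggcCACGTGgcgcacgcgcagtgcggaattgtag
Aars: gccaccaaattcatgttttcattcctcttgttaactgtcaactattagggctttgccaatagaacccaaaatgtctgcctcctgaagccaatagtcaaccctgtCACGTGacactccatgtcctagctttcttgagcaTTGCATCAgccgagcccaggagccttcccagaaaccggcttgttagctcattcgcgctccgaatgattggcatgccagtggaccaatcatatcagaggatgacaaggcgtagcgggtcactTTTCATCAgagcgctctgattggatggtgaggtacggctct
Farsb: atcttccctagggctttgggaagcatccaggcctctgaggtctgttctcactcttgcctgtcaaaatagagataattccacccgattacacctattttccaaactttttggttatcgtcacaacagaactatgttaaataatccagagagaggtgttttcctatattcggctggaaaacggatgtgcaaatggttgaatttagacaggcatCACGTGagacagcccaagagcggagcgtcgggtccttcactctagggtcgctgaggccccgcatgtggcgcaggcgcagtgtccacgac
In Iars the E-box begins 69 bases before the start and the composite element, read on the other strand as TTGCATCA, 7 bases after it. In Tars the composite element begins 15 bases before the start and the E-box 19 after it, and a CAGCTG overlaps the composite element. Aars holds 1 E-box 146 bases before the start and 2 composite matches, and in Farsb the E-box begins 39 bases before the start. The Aars window lies inside the annotated gene (chr8:111027778-111055569), so the start used there is not the 5′ end of the gene. Iars, Tars and Farsb rose with anti-IgM in wild-type cells, whereas Aars had 0.31 and missed the threshold (adjusted p 0.110), and Rars, which rose most, had no promoter entry here.

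**Figure D2:**
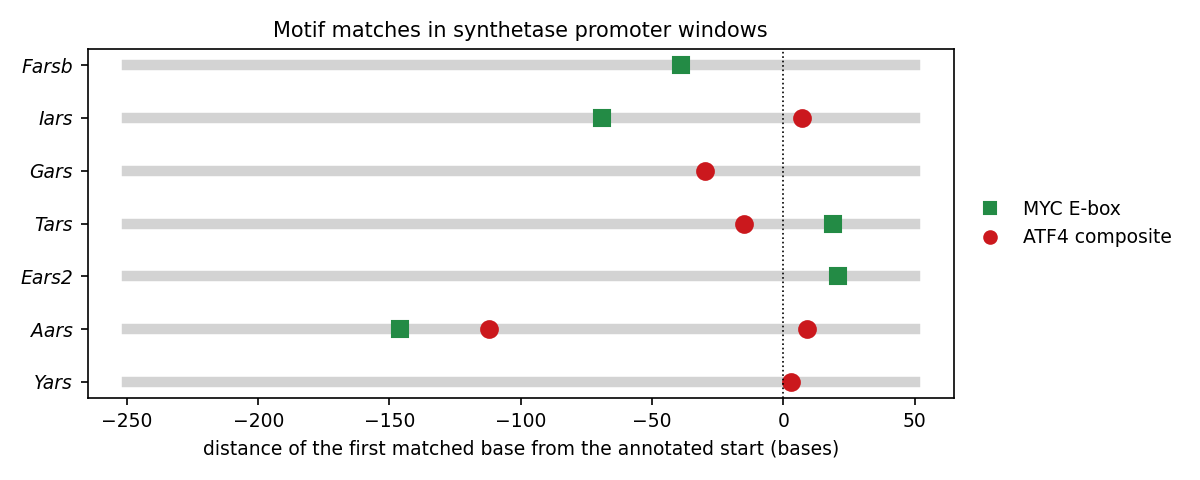
Position of motif matches, in bases from the start of the promoter entry (x axis), in the 300-base promoter windows of the 7 members that hold CACGTG (green squares) or TGATGNAA (red circles), grey bars being the windows. Both motifs occur in Aars, Iars and Tars.

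The second comparison was the anti-IgM response with mutant E12. By limma, 0 of 31 synthetases rose (background 0.189%) and 0 fell (background 0.0398%, and 0.229% for either direction), and 3 of 31 had an unadjusted p under 0.05, as did 9.17% of all genes. The median change over the members was 0.08, from -0.34 (Vars) to 0.41 (Farsb), with 0.11 over the cytosolic and -0.04 over the mitochondrial enzymes. Treated arrays lay above untreated ones for Farsb, Ears2 and Yars (3 of 31, background 6.59%) and below them for Vars (1 of 31, background 5.5%). With array weights, limma called 3 members higher and 2 lower. The share of all genes called in that fit was not computed, so these counts have no background.

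Farsb had the smallest p. It measured 11.30, 11.12 and 11.18 in untreated and 11.74, 11.40 and 11.70 in treated mutant cells. The treated arrays were all higher, but the change of 0.41 ± 0.14 (SE) had an adjusted p of 0.285. Rars2 followed with 8.85, 8.54 and 8.81 untreated and 9.14, 8.83 and 9.25 treated. These groups overlapped, and the change was 0.34 (adjusted p 0.445). Rars measured 10.02, 9.78 and 9.87 untreated and 10.29, 9.86 and 10.26 treated, again with overlap, a change of 0.24. Kars went from 10.08, 9.94 and 9.74 to 10.18, 10.06 and 9.93, and Gars from 12.95, 12.73 and 13.20 to 12.82, 13.25 and 13.35, both with overlap.

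**Figure D3:**
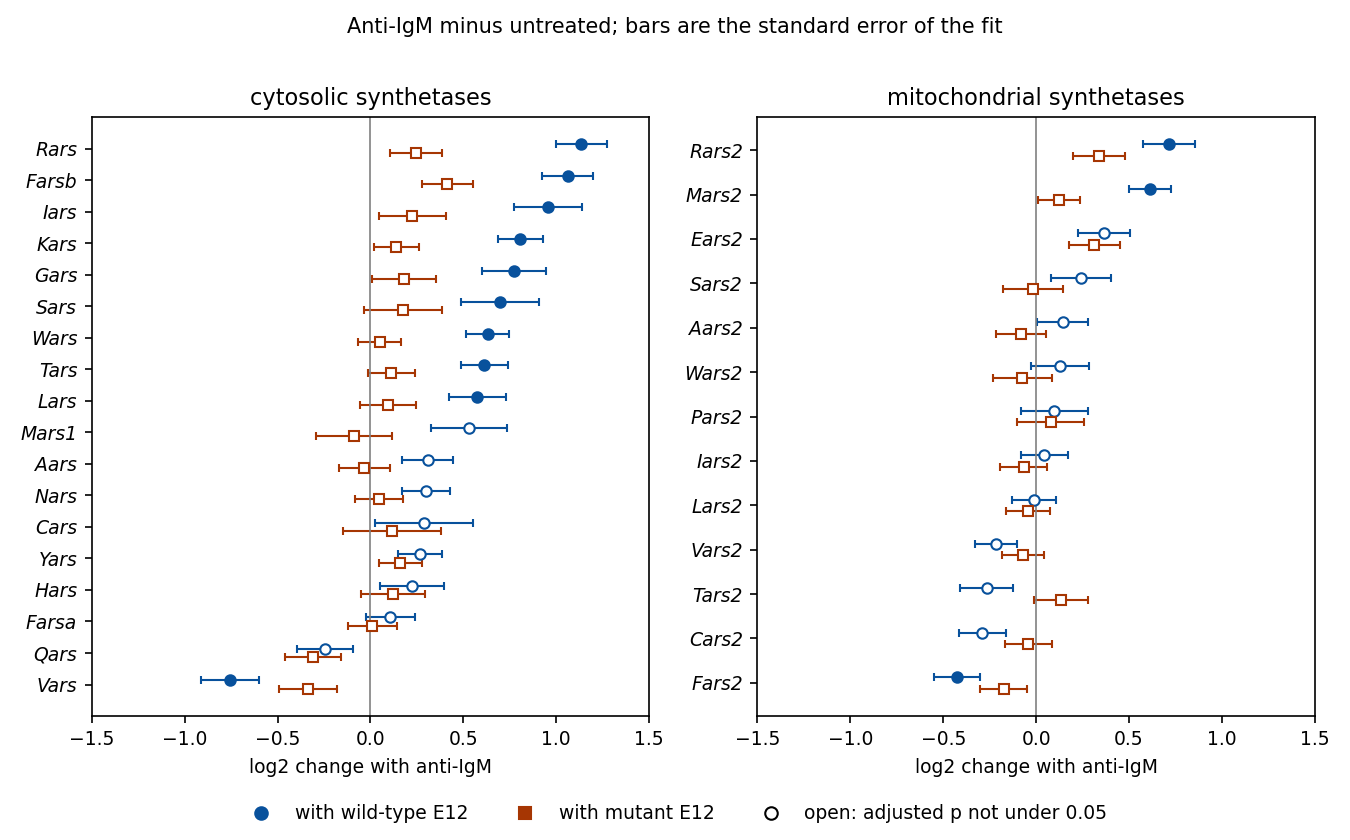
Log2 change with anti-IgM for each synthetase (x axis) under wild-type and mutant E12, cytosolic and mitochondrial members apart. Bars are the standard error of the fit, and filled symbols mark an adjusted p under 0.05, which 13 wild-type and 0 mutant changes reached.

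The difference between the responses, mutant minus wild type, was tested directly with the interaction term. With mutant E12, 3 synthetases had a lower response (background 3.46%) and 0 a higher one (background 3.48%), while 6.95% of all genes differed either way. At an unadjusted p under 0.05 there were 9 of 31 members and 21.1% of all genes. The difference was negative for 26 of 31 members, and for 17 of 18 cytosolic members, where its median was -0.49. The mitochondrial median was -0.05 and that of all genes 0.01. Of the 11 synthetases that rose with wild-type E12, 3 had a called difference. Of all 31, 28 had a smaller absolute change with the mutant (90.3%), as did 75.1% of all genes.

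Rars differed most, with a response of 1.13 under wild-type and 0.24 under mutant E12. The difference was -0.89 ± 0.20 (SE; adjusted p 0.0144), and its other probe gave -0.81. Kars had 0.81 and 0.14, a difference of -0.67 ± 0.17 (SE; adjusted p 0.0313), while its other probe gave -0.48 and was not called (adjusted p 0.221). Wars measured 8.47, 8.59 and 8.55 untreated and 9.33, 9.12 and 9.04 treated with wild-type E12, and 9.21, 9.04 and 9.05 untreated and 9.12, 9.21 and 9.12 treated with the mutant. Only the wild-type groups were separate, and the responses of 0.63 and 0.05 differed by -0.58 ± 0.16 (SE; adjusted p 0.0433). The other detected Wars probes gave differences of -0.96 (adjusted p 0.0276), -0.64 (0.0831) and -0.76 (0.0577), of which only the first was called. Sars had -0.52 on the probe used and was not called, but its other detected probe gave -0.88 and was called (adjusted p 0.0374). Farsb (-0.65, adjusted p 0.0650), Iars (-0.73, 0.111) and Mars2 (-0.49, 0.0824) missed the threshold. The Rars call held with each of the 12 arrays left out in turn and was lost with median scaling in place of quantile normalisation (-0.75, adjusted p 0.0510). Kars was lost in 8 and Wars in 11 of the 12 omissions, and Rars alone was left without untreated wild-type replicate 3, any treated wild-type replicate, untreated mutant replicate 1 or 2, or treated mutant replicate 2 or 3. With replicate numbers blocked inside either E12 form, 5 were called, adding Farsb (adjusted p 0.0212) and Iars (0.0114), but 14% of all genes were then called, and the number does not pair the mutant samples. With the number as a block over all 12 arrays, Wars was lost (adjusted p 0.0563).

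The third comparison set mutant against wild-type E12 in untreated cells. With the mutant 14 synthetases were higher (background 20.4%) and 1 was lower (background 22.2%, and 42.6% for either direction), with a median difference of 0.25 against 0.01 over all genes. Among 18 cytosolic members 11 were higher and 0 lower (median 0.46). In the complex 5 of 6 were higher (median 0.69), Rars being the exception at 0.25 (adjusted p 0.158). Of 13 mitochondrial members 3 were higher and 1 lower (median -0.06). The arrays did not overlap for 19 members, 17 with the mutant higher (background 24%) and 2 with it lower (background 25.4%). The untreated wild-type arrays are shared with the first comparison, so these values and those of the first are not independent. Without untreated wild-type replicate 1, 12 were higher and 2 lower, and without untreated mutant replicate 3 the counts were the same.

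Sars measured 8.18, 8.84 and 8.86 with wild-type and 9.97, 9.90 and 9.28 with mutant E12, without overlap. The difference was 1.09 ± 0.21 (SE; adjusted p 0.000917). Kars stood at 8.77, 8.98 and 8.84 against 10.08, 9.94 and 9.74, a difference of 1.05 ± 0.12 (SE; adjusted p 1.44e-05) and 1.15 on its other probe. For both genes every mutant array exceeded every wild-type array. Mars1 measured 9.05, 9.21 and 9.24 with wild-type and 9.79, 9.83 and 10.23 with mutant E12 (0.78, adjusted p 0.00722). Lars measured 11.03, 11.30 and 11.29 against 11.74, 11.76 and 12.29 (0.72, adjusted p 0.00166). Both were separate between the forms. Iars (0.67), Aars (0.63), Gars (0.57), Wars (0.56), Qars (0.52), Tars (0.40) and Nars (0.38) were the other cytosolic members called higher. Of these calls, Nars and Tars were each lost in 3 of the 12 single-array omissions, Gars in 2 and Qars in 1, and with array weights Gars had 0.26 and was not called. Of 20 members with several detected probes, 5 had probes of opposite sign. For Iars another probe above background on all 12 arrays gave -0.06, and for Aars another, above background on 9, gave -0.11. Vars had -0.18, not called, on the probe used but 0.69 and 1.26 on its other probes, both called. The other Qars probes on all 12 arrays gave 0.94 and 1.04, both called.

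Fars2 and Wars2, both mitochondrial, differed between the forms in opposite directions. Fars2 measured 9.02, 9.33 and 9.22 with wild-type and 9.98, 10.09 and 9.84 with mutant E12 (0.78, adjusted p 0.00022). Wars2, the mitochondrial tryptophanyl enzyme, measured 7.19, 6.80 and 6.71 against 6.15, 6.07 and 5.87 (-0.87, adjusted p 0.00054). Neither gene's groups overlapped. The Wars2 probe was above background on 2 of 3 arrays in each mutant group. Its other detected probes gave -0.70 and -0.51. Both of these were above background on 0 arrays of either mutant group. They passed the filter only through wild-type arrays and so give no separate support. The 3 mitochondrial enzymes called higher were Fars2, Mars2 (0.49) and Vars2 (0.48).

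The fourth comparison set mutant against wild type after anti-IgM. The members' counts were equal in each direction and near the background shares, and all genes were nearly balanced too (2136 higher, 2232 lower). With the mutant 6 synthetases were higher (background 21.3%) and 6 lower (background 22.2%, and 43.5% for either direction), with 3 of each among the cytosolic and among the mitochondrial members. The arrays were separate for 9 members with the mutant higher (background 28.2%) and 9 with it lower (background 29.9%). Fars2 measured 8.67, 8.81 and 8.81 with wild-type and 9.92, 9.84 and 9.63 with mutant E12 (1.03, adjusted p 1.91e-05). Wars2 measured 7.10, 6.99 and 6.99 against 5.64, 6.11 and 6.12 (-1.07, adjusted p 9.31e-05). On the probes used these were the widest gaps in each direction, with no overlap. The other Vars probes, above background on all 12 arrays, gave 1.36 and 1.11, both called, whereas the probe used gave 0.24. Another Qars probe on all 12 arrays gave 1.06 and was called. For Iars the probe used gave -0.06, but another on all 12 arrays gave -0.70 and was called.

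Rars measured 10.75, 10.96 and 10.62 with wild-type and 10.29, 9.86 and 10.26 with mutant E12 in treated cells, so the mutant arrays were all lower (-0.64, adjusted p 0.0019). Vars2, the mitochondrial valyl enzyme, measured 7.54, 7.50 and 7.58 against 8.26, 8.23 and 8.02 (0.63, adjusted p 0.000435). Sars measured 9.36, 9.29 and 9.32 against 10.18, 9.89 and 9.60 (0.56, adjusted p 0.043). All 3 pairs of groups were separate, but the other Sars probe on all 12 arrays gave -0.20 and was not called, and the Sars call was lost in 6 of the 12 single-array omissions. Rars2 measured 9.57, 9.52 and 9.70 with wild-type and 9.14, 8.83 and 9.25 with the mutant, all mutant arrays lower (-0.52, adjusted p 0.00728), with -0.37 and -0.17 on its other detected probes, neither called. Cars2 (0.47), Qars (0.45) and Kars (0.39) were also higher, and Farsb (-0.50), Iars2 (-0.37) and Farsa (-0.36) also lower. The Qars, Iars2 and Farsa calls were each lost in 5 of the 12 single-array omissions and Kars in 2. Other probes on all 12 arrays gave 1.06 and 0.94 for Qars and 0.67 for Kars, all called. The other Iars2 probe gave -0.17 and was not called. Farsa was above background on 1 of 3 treated mutant arrays. Without treated wild-type replicate 2, 3 members were higher.

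**Figure D4:**
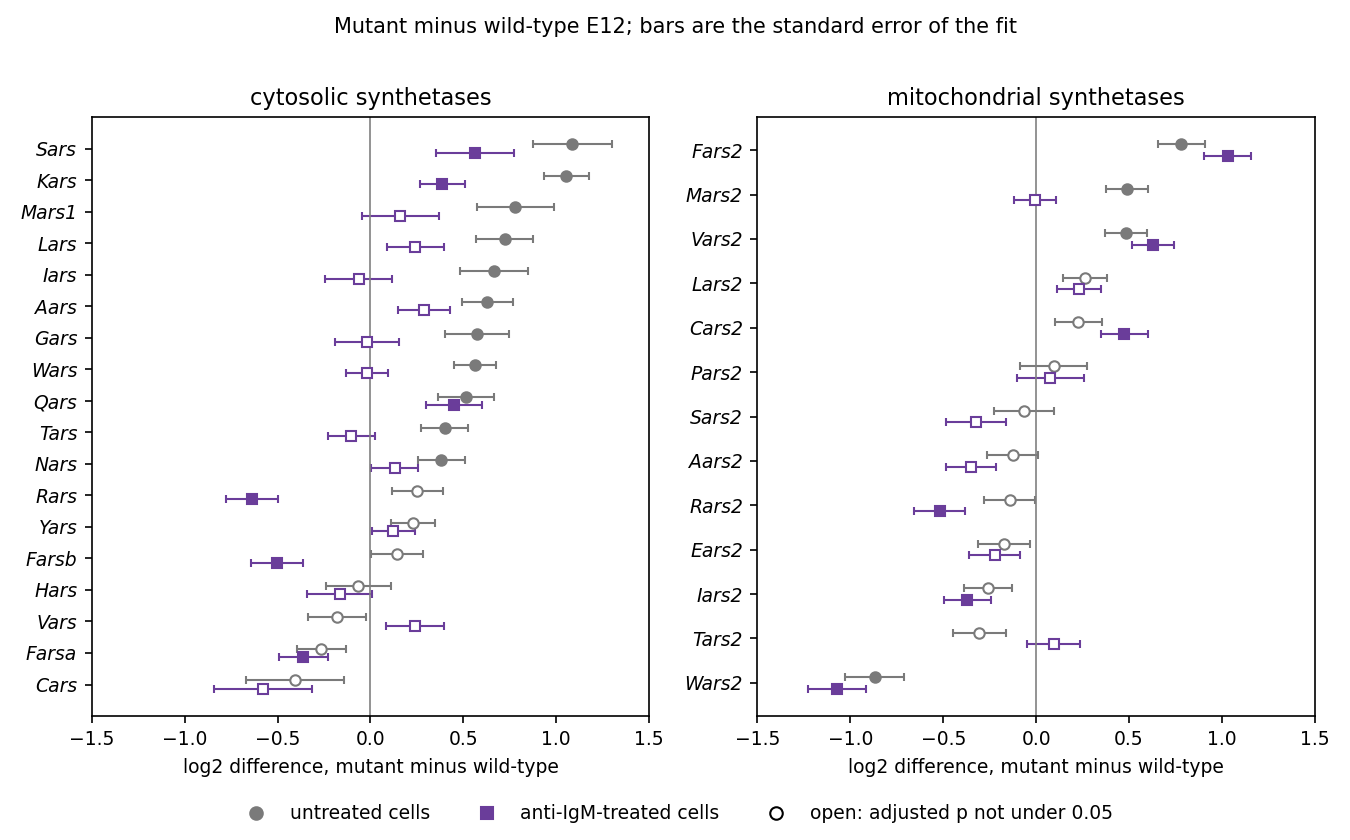
Log2 difference, mutant minus wild-type E12 (x axis), for each synthetase in untreated cells (grey circles) and anti-IgM-treated cells (purple squares). Bars are the standard error of the fit, and filled symbols mark an adjusted p under 0.05; 15 untreated and 12 treated differences reached it.

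Both comparisons between E12 forms depended on the scaling. The deposited medians were 6.93 to 6.94 on the wild-type arrays and 6.40 on the mutant arrays, so the forms appear to have been normalised as separate sets, and form and set cannot be told apart. With median scaling of the deposited values in place of quantile normalisation, the median of all genes shifted to 0.12 in untreated and 0.11 in treated cells. The share of calls that were higher with the mutant went from 47.9% to 66.3% in untreated cells and from 48.9% to 66.9% in treated cells. In untreated cells 19 synthetases were then higher and 1 lower, beside 3219 higher and 1638 lower of all 10050 genes. The members' median stood 0.43 above that of all genes (0.24 with quantile normalisation). In treated cells 14 were higher and 3 lower, beside 3153 higher and 1563 lower of all 10050 genes. Farsb turned from -0.50 to 0.32 (adjusted p 0.0727) and Iars2 from -0.37 to 0.048 (0.796), while Rars moved to -0.02 and Rars2 to -0.11.

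Relative to its mean over the 12 arrays, the average cytosolic synthetase stood at -0.44 to -0.21 on the untreated wild-type arrays. It stood at 0.09 to 0.17 on the treated wild-type arrays, -0.01 to 0.14 on the untreated mutant arrays and 0.10 to 0.16 on the treated mutant arrays. On this quantile-normalised scale the untreated wild-type group thus lay below the other groups, which overlapped each other. With median scaling the cytosolic median was 0.48 higher with mutant than wild-type E12 after anti-IgM, against 0.05 here. For the average mitochondrial member, all 12 arrays lay between -0.11 and 0.09.

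The partners of the complex were measured next. Eprs, which charges both glutamate and proline, measured 8.43, 8.41 and 8.68 in untreated and 9.83, 9.61 and 9.64 in treated wild-type cells. The groups were separate, the rise was 1.19 (adjusted p 1.05e-05), and the difference of responses was -0.95 (adjusted p 0.00718). Of the scaffold genes, Aimp2 rose by 1.60 (adjusted p 3.15e-05) and Eef1e1 by 1.97 (adjusted p 2.25e-05) with wild-type E12, and Aimp1 had -0.07. In mutant cells Aimp1 measured 11.16, 11.18 and 10.99 untreated and 10.88, 10.50 and 10.81 treated, without overlap, a change of -0.38 that was not called. With mutant E12 the changes of Eprs (0.24), Aimp2 (0.51) and Eef1e1 (0.64) were not called. Aimp2 and Eef1e1 also had a lower response with the mutant, by -1.09 and -1.33. After anti-IgM, Eprs (-0.65) and Eef1e1 (-1.22) were lower with mutant than with wild-type E12.

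**Figure D5:**
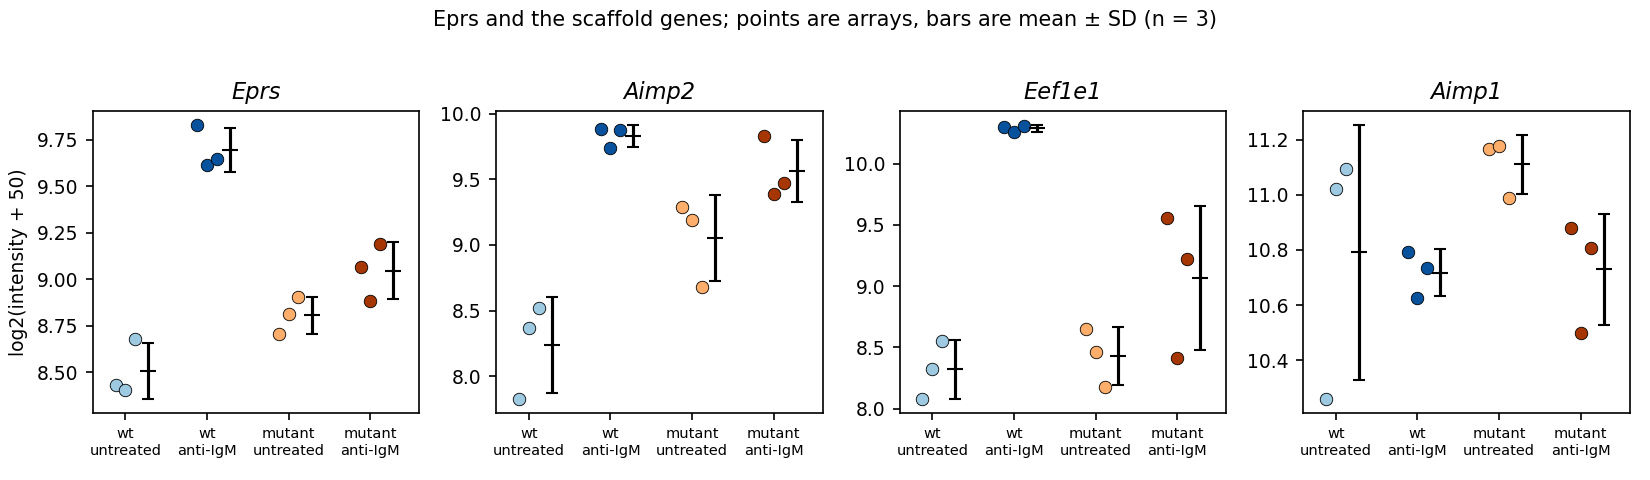
Per-array log2(intensity + 50) of Eprs and the scaffold genes Aimp2, Eef1e1 and Aimp1 (y axis) in the 4 groups, with points for arrays and bars for mean ± SD (n = 3). Eprs lies at 9.61 to 9.83 in treated wild-type cells and at 8.41 to 9.19 on all other arrays. For Aimp1 the wild-type groups overlap and the treated mutant arrays lie below the untreated ones.

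Genes that make, export or deliver tRNA were taken as a list of 9. In the wild-type response 3 of 9 rose (background 15.1%) and 0 fell (background 16.2%). These were Elac2, which trims tRNA ends (1.48), Trnt1, which adds the terminal CCA (0.90), and the tRNA exporter Xpot (0.67). Of 12 other charging enzymes and editing factors, 3 rose and 0 fell, against the same backgrounds: Eprs, and the selenocysteine pathway genes Sephs2 (0.97) and Sepsecs (0.47). Neither list had a call in the mutant response, where the background was 0.229% for either direction. In untreated cells 4 of those 12 and 2 of the 9 were higher with the mutant (background 20.4%), and 0 of 12 and 1 of 9 lower (background 22.2%), the latter the elongation factor subunit Eef1b2 (-1.05). In treated cells 3 of the 12 and 0 of the 9 were higher (background 21.3%), and 2 of the 12 and 4 of the 9 lower (background 22.2%).

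Genes of the amino acid response, a programme driven by ATF4 that is known to include many cytosolic synthetases, were compared on the same arrays. In the wild-type response 8 of 15 rose (background 15.1%) and 0 fell (background 16.2%), led by Ddit3 (1.20), Chac1 (1.07) and Asns (0.92), and Atf4 itself rose by 0.81 (adjusted p 0.000534). With mutant E12, 0 of 15 were called (background 0.229%), and 2 had an unadjusted p under 0.05. In untreated cells 11 of 15 were higher with the mutant (background 20.4%) and 0 lower (background 22.2%). These include Slc7a11, above background on 1 of 3 untreated wild-type and 3 of 3 untreated mutant arrays. They also include Slc7a1, above it on 0 of 3 and 1 of 3. Slc7a1 is also among the 8 that rose, with 2 of 3 treated wild-type arrays above background. Asns, which makes asparagine, measured 8.58, 9.29 and 9.13 with wild-type and 11.45, 11.26 and 11.39 with mutant E12 (2.37, adjusted p 1.2e-07), without overlap. Chac1 (1.96) and Trib3 (1.68) followed, whereas Atf4 itself had 0.05 and was not called (adjusted p 0.809). In treated cells 5 were higher with the mutant (background 21.3%) and 1 lower (background 22.2%), Atf4 at -0.56.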

How the data were processed

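RNA from GFP-sorted B cells was hybridised to Illumina mouse arrays after biotin labelling, per the labels' protocols. The deposited values are intensity values on a linear scale, some below 0, with near-identical medians within each E12 form. From these values the authors appear to have subtracted background and normalised each form as its own set, which no label or header records. The software is not given in the sources used here. Another 12 columns of unnormalised signal could not be tied to samples and were not used.

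The deposited intensity values of all 12 arrays were quantile normalised together, offset by 50 and converted to log2. Probes were named from the platform annotation (34885 with 1 symbol, 18 with several and 10378 with none). A probe was kept if above a detection limit (p 0.01, from the negative values) on at least 3 arrays, and the probe of the highest mean stood for its gene. Members were placed in the cytosol or mitochondria, and in class I or II, from general knowledge. Tests used limma 3.58.1 in R 4.3.3, with 4 group means, 8 residual degrees of freedom and Benjamini-Hochberg adjustment over all genes, in 5 comparisons, and the procedure was tested on simulated data. The number of arrays limits the precision.

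The members and gene lists were chosen with earlier results of these data known. Values on every array are given for up to 6 members with the greatest called change in a comparison, or for the 2 of lowest p if none was called, and for list genes up to 3 are named. Rars, Kars and Gars in the mutant response, and Mars2, Rars2 and Fars2 in the wild-type response, were given in full in addition, after their values were seen. In the amino acid response list Atf4, Slc7a1 and Slc7a11 were named beyond this limit. In the wild-type arrays same-numbered samples had r of 0.289, 0.177 and 0.185, against at most -0.180, 0.153 and 0.121 with a differently numbered sample. In the mutant arrays they had 0.608, -0.0455 and 0.547, against at most -0.250, 0.405 and 0.491. The number thus does not pair the mutant samples throughout, and for wild-type numbers 2 and 3 the margin was small. Alternatives covered the offset, detection filter, scaling, probe choice, array weights, replicate block, arrays in the fit and each array left out.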

Additional observations from a re-analysis of the deposited data

Results flagged for a closer look

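The results listed here were those whose anti-IgM response differed between the E12 forms by the interaction term in limma, given as mutant minus wild type on the log2 scale. Among the synthetases these were Rars (-0.89, adjusted p 0.0144), Kars (-0.67, 0.0313) and Wars (-0.58, 0.0433). Eprs (-0.95, adjusted p 0.00718) and the complex scaffold genes Aimp2 (-1.09, 0.0281) and Eef1e1 (-1.33, 0.0239) were flagged beside them. The tRNA end-adding enzyme Trnt1 (-0.63, adjusted p 0.0177) and the selenophosphate synthetase Sephs2 (-0.81, 0.034) had lower responses too. Of the amino acid response genes, Asns (-0.81, adjusted p 0.0406), Chac1 (-1.16, 0.0222) and Shmt2 (-0.76, 0.0276) did. All 11 were negative, and only the synthetases and the scaffold, charging, tRNA and amino acid response lists were searched. Among the marker lists, 2 B-cell and 2 myeloid genes had a higher response and 1 plasma-cell gene a lower one (-1.86). Over all genes 350 were higher and 348 lower. No group was large enough for a test of single outlying samples.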

How the results depend on the processing

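Counts of called synthetases that moved under an alternative were as follows. With array weights, 5 fell in the wild-type response, 3 rose and 2 fell in the mutant response, and 6 were lower with the mutant in untreated cells. The difference of responses was then higher for 1 and lower for 7. The share of all genes called with array weights was not computed. With median scaling, 14 were higher and 3 lower with the mutant after anti-IgM, Farsb and Iars2 turning to 0.32 and 0.048, and 0 had a lower response. Of all 10050 genes, 3153 were then higher and 1563 lower after anti-IgM, and 186 had a lower response. With an offset of 16, 1 had a lower response. With detection required on all 12 arrays, which removes Wars2, 0 were lower in untreated mutant cells. With the replicate block within each E12 form, 5 had a lower response and 13 rose in the wild-type response; it changed no other count of calls by over 1.5 times. Leaving out each array in turn gave 10 to 13 higher and 1 to 4 lower in the wild-type response and 0 either way in the mutant response. Mutant minus wild type gave 12 to 14 higher and 1 to 2 lower untreated, and 3 to 6 higher and 4 to 8 lower after anti-IgM. The difference of responses gave 0 higher and 1 to 3 lower. Apart from the removal of Wars2, the cause of these moves was not tested. The wild-type rise of 11 ranged from 10 to 14 over all alternatives.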
